A study of Rattus norvegicus with 9 samples.

Results

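The alpha-arrestins Arrdc1, Arrdc2, Arrdc3, Arrdc4 and Txnip were followed in rat superior mesenteric artery (SMA), the vessel that feeds most of the small intestine, in normal animals and after 1 h or 4 h of ischemia. The members were the rows of the deposited count table with these 5 gene symbols, of 37203 symbols in all, and all 5 passed the filter on low counts that 15482 genes passed. The family was selected on the levels of its members in these same 9 libraries, so their values by group are a description and support nothing beyond it. The samples were SMAs of 8-week-old SD rats weighing 220 to 240 g, with 3 libraries labelled Normal, 3 labelled Ischemia 1h and 3 labelled Ischemia 4h. Ischemia was produced under pentobarbital anaesthesia by letting blood from a femoral artery, so it was a whole-animal hemorrhage and not a ligation of the SMA, and no sham operation is mentioned in the methods for the normal group.

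Alpha-arrestins are adaptor proteins with an arrestin fold. Most of them carry PPxY motifs that bind the WW domains of Nedd4-type ubiquitin ligases, and in this way they bring ligases to membrane proteins that are then taken up from the cell surface. Txnip, the best known member, binds thioredoxin and promotes the internalization of glucose transporters. Txnip and Arrdc4 are also classic targets of the glucose-sensing factor MondoA and its partner Mlx, which bind E-box pairs in their promoters. Arrdc3 has been linked to the turnover of cell surface receptors and of integrin beta 4, and Arrdc1 to the budding of vesicles with the help of the ESCRT protein Tsg101.

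The upstream sequences of Arrdc3, whose ischemic libraries lay above normal at both stages, and of Arrdc2, whose libraries did so at 4 h only, are shown beside that of Arrdc4, whose groups overlapped at both, so that the stretch just before each annotated start can be compared. They come from RefSeq on assembly GRCr8, which was used for sequence only, since the build behind the counts is not given in the sources used here. Of the 5 members, 4 matched the RefSeq promoter table, and Txnip did not. Each run is read 5′ to 3′ toward the start of the gene and stops before the annotated gene begins. Capitals mark matches on either strand to CACGTG (the E-box), TGACG (the core of the cAMP response element), AGAACA (the repeat unit of the glucocorticoid response element), TGTTTAC (a FoxO site), CCAAT or TATAAA, the last 2 of which were added after the sequences had been read. No matches overlapped each other.
Arrdc3, chr2:12872952-12873201, plus strand: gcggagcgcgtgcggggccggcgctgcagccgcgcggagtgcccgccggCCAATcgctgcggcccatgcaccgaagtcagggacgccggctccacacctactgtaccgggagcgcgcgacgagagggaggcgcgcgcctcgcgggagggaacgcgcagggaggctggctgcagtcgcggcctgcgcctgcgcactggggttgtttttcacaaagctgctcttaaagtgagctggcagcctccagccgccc
Arrdc2, chr16:18635633-18635882, plus strand: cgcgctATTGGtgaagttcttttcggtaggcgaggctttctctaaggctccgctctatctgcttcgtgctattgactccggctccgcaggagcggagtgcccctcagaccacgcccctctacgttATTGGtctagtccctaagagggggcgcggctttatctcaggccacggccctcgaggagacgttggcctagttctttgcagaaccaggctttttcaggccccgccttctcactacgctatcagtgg
Arrdc4, chr1:131793439-131793675, minus strand: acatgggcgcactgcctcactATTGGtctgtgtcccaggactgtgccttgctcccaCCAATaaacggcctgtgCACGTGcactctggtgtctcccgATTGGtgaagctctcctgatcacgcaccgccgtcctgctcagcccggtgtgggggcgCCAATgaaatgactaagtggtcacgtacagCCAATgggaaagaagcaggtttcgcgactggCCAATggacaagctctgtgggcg

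Arrdc3 held 1 match, a CCAAT 201 bases before the start. Arrdc2 held 2 CCAAT matches on the reverse strand, 244 and 125 bases before it. For Arrdc4 the start in the promoter table lies 13 bases inside the annotated gene, so its printed run ends 13 bases before that start. Counted from that start, Arrdc4 held an E-box 177 bases upstream and 6 CCAAT matches, 3 of them between 154 and 229 bases and 3 between 36 and 97 bases before it. Among 33469 rat promoters of 250 bases, 5.59% held an E-box, 18.2% TGACG, 17.5% AGAACA, 3.21% TGTTTAC, 34% CCAAT and 12.9% TATAAA, and 0.0329% (11 promoters) held at least 6 CCAAT matches. For Arrdc1 the table likewise gave a start 131 bases inside the annotated gene, and its window held 1 TGACG match on the reverse strand, 15 bases before that start. These matches describe letters only, and no binding was measured.

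Libraries held from 13114273 to 15504240 counts, and levels are given as CPM, counts relative to library sizes scaled by the TMM method, where 1 CPM equalled 12.1 to 17.9 counts. Myh11, the smooth muscle myosin that marks the arterial wall, was at 4693 to 23515 CPM, so each library held smooth muscle. The summed level of 7 exocrine pancreas genes ran from 3.75 CPM (1 h replicate 1) to 142 CPM (1 h replicate 2). The amount of nerve tissue differed strongly. The summed level of 23 peripheral nerve genes was 100.4 to 2517 CPM in normal libraries, 1911 to 10963 CPM at 1 h and 240 to 10746 CPM at 4 h. It reached 10405, 10963 and 10746 CPM in 3 nerve-rich libraries, 1 h replicates 1 and 3 and 4 h replicate 3, where Dbh, the enzyme that makes noradrenaline, was at 1854, 1866 and 2041 CPM. All 23 nerve genes had counts in some library, but Dbh had 0 counts in normal replicate 2. The series describes 3 rats in each group but the labels do not name the animal behind a library, so p-values measure the spread between these libraries. In whole tissue a change of a transcript within a cell type and a change in the share of that cell type cannot be told apart.

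To describe the family as a whole, the 5 members were read in the fit of all 15482 genes. After edgeR's quasi-likelihood test with Benjamini-Hochberg adjustment, 0 of 5 members were called (adjusted p under 0.05 and fold over 1.5) at 1 h against normal, where 0.0581% of all genes were called, and 0 of 5 at 4 h against normal, where 0.0904% were. In the test of the 3 groups together 0 of 5 were called beside 0.0388% of all genes, and between 4 h and 1 h 0 of 5 were called beside 0%. At an unadjusted p under 0.05 there were 2 members, Arrdc2 and Arrdc3, at 1 h (16.7% of all genes), at 4 h (12.4%) and in the test of the 3 groups (11.4%), and 0 between 4 h and 1 h (2.58%). Leaving out 1 library in turn gave 1 to 2 members at 1 h, with Arrdc3 alone when normal replicate 2, normal replicate 3, 1 h replicate 2 or 1 h replicate 3 was left out, 2 at 4 h, and 1 to 2 in the test of the 3 groups. DESeq2 called Arrdc3 at 1 h (4.53% of all genes) and in the test of 3 groups (4.32%), and Arrdc3 and Arrdc2 at 4 h (3.91%). With a nerve score (the average of the nerve genes on the log2 CPM scale) added to the model, Arrdc3 alone among the members was called at 1 h (0.11% of all genes), at 4 h (0.866%) and in the test of 3 groups (0.194%). The contrasts at 1 h and at 4 h use the same normal libraries, so they are not separate evidence, and since the family was chosen with these contrasts known nothing is read from its counts.

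**Figure D1:**
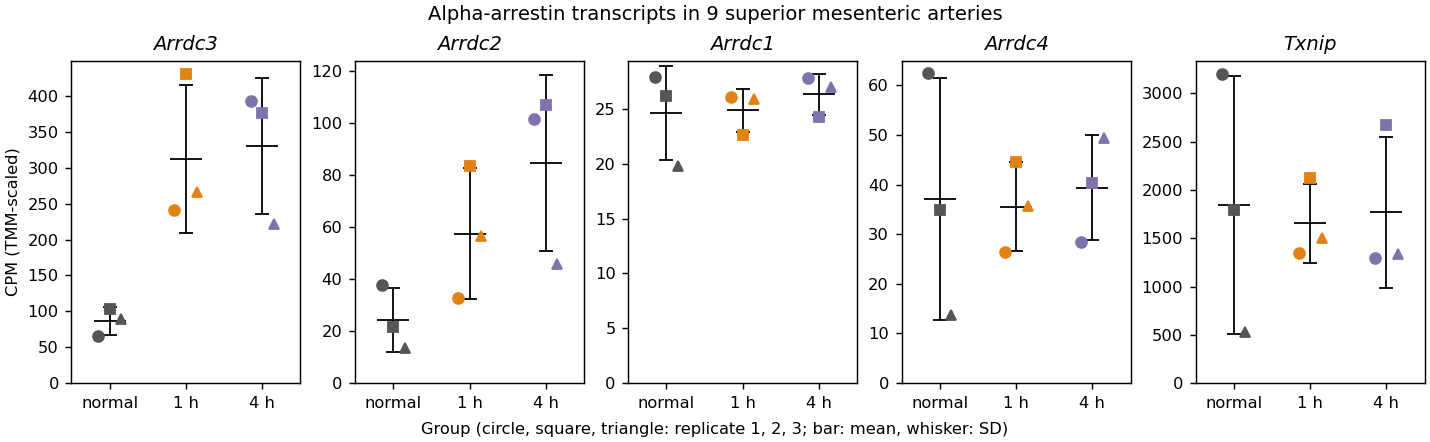
Level of each alpha-arrestin in CPM on TMM-scaled library sizes (vertical axis from 0, own scale for each gene) in normal, 1 h and 4 h arteries, with circles, squares and triangles for replicates 1, 2 and 3, a bar for the mean and whiskers for the SD of 3 libraries. All 6 ischemic values of Arrdc3 (221 to 430 CPM) lie above the 3 normal values (65.1 to 103.6 CPM), while the groups overlap for Arrdc1, Arrdc4 and Txnip.

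Arrdc3, the adaptor tied to receptor turnover, had the clearest separation of the groups. It was at 65.1, 103.6 and 89.9 CPM in normal replicates 1 to 3, at 240.6, 430 and 266 CPM at 1 h, and at 393, 376 and 221 CPM at 4 h. The lowest ischemic library, 4 h replicate 3, stood well above the highest normal library, replicate 2. This separation of all 6 ischemic from all 3 normal libraries in the upward direction was shared by 3.99% of all genes tested. Mean levels were 86.2 ± 19.5 CPM in normal arteries, 312 ± 103 CPM at 1 h and 330 ± 94.8 CPM at 4 h (SD, n = 3 each). The fitted log2 fold change was 1.86 (SE 0.34) at 1 h, a 3.62-fold difference, and 1.94 (SE 0.34) at 4 h, a 3.83-fold difference. The 95% intervals ran from 1.08 to 2.63 at 1 h and from 1.16 to 2.71 at 4 h on the log2 scale. Between the stages the levels overlapped, and the log2 difference of 4 h minus 1 h was 0.08 (SE 0.33), with an interval from -0.67 to 0.83 that leaves room for a change of more than 1.5-fold either way. Leaving out each library in turn gave log2 fold changes from 1.55 to 2.01 at 1 h and from 1.77 to 2.16 at 4 h.

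Within the ischemic groups Arrdc3 was lowest in the 3 libraries with the most nerve RNA. It was at 240.6, 266 and 221 CPM in those libraries and at 430, 393 and 376 CPM in the other 3. The normal libraries stood in the same order, with 103.6 CPM in replicate 2 at the lowest nerve level (100.4 CPM summed) and 65.1 CPM in replicate 1 at the highest (2517 CPM summed). When the nerve score was in the model, Arrdc3 had a log2 fold change of 2.38 (SE 0.25) at 1 h and 1.97 (SE 0.21) at 4 h. Without the 3 nerve-rich libraries, a fit chosen after the data were seen, it was 2.17 (SE 0.29) at 4 h. At 1 h that fit keeps only replicate 2, which has the highest Arrdc3 value of all, and it gave 2.33 with an SE of 0.33 that assumes this lone library varies like the other groups. Smooth muscle genes stood in the opposite order to nerve genes, with a summed level of 13387 to 26881 CPM in the 3 nerve-rich libraries against 49191 to 72188 CPM in the other 3 ischemic ones, and their part in the level of Arrdc3 was not tested.

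Arrdc2, a less studied relative of Arrdc3, followed Arrdc3 with a wider spread. It was at 37.8, 21.6 and 13.4 CPM in normal replicates 1 to 3, at 32.8, 83.5 and 56.5 CPM at 1 h, and at 101.5, 107 and 45.7 CPM at 4 h. At 1 h replicate 1 lay below normal replicate 1, so the groups overlapped, whereas at 4 h all 3 libraries lay above all 3 normal ones, as did 7.93% of all genes. For comparison, 12.8% of genes lay wholly above normal at 1 h, Arrdc3 among them. Means were 24.3 ± 12.5 CPM in normal arteries, 57.6 ± 25.4 CPM at 1 h and 84.7 ± 33.9 CPM at 4 h (SD, n = 3 each). The log2 fold change was 1.24 (SE 0.50) at 1 h, a 2.37-fold difference, and 1.80 (SE 0.51) at 4 h, a 3.49-fold difference. From 1 h to 4 h it differed by 0.56 (SE 0.49), with overlapping libraries and an interval from -0.57 to 1.69. As with Arrdc3, the 3 nerve-rich libraries held the 3 lowest ischemic values, at 32.8, 56.5 and 45.7 CPM. The normal libraries did not stand in that order, since replicate 1, with the most nerve RNA, had the highest normal value of Arrdc2. With the nerve score in the model, Arrdc2 had a log2 fold change of 1.60 (SE 0.54) at 1 h and 1.71 (SE 0.47) at 4 h. Leaving out the nerve-rich libraries together gave 2.14 (SE 0.40) at 4 h and, from the lone replicate 2 and under the same assumption, 1.81 (SE 0.47) at 1 h. Normal replicate 1 weighed most on Arrdc2, and without it the log2 fold changes were 1.72 and 2.27, while without 1 h replicate 2 that at 1 h was 0.88.

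**Figure D2:**
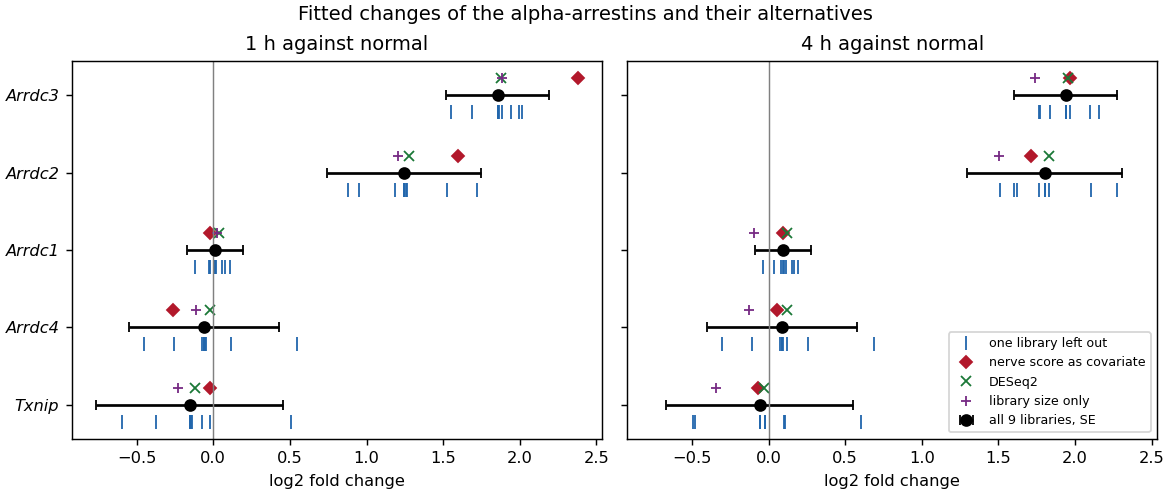
Fitted log2 fold change of each alpha-arrestin (horizontal axis) at 1 h and at 4 h against normal. Black points with SE bars are from all 9 libraries, blue ticks leave out one library each, diamonds add the nerve covariate, crosses are DESeq2 and plus signs use library size as the only scaling. Every point of Arrdc3 and Arrdc2 lies above 0 in these fits (0.88 to 2.38), and the points of Arrdc1, Arrdc4 and Txnip fall on both sides of 0.

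Arrdc1, the adaptor of ESCRT-dependent vesicle budding, had the narrowest range of the family. It was at 27.9, 26.2 and 19.8 CPM in normal replicates 1 to 3, at 26.1, 22.6 and 25.9 CPM at 1 h, and at 27.8, 24.2 and 27.0 CPM at 4 h. The lowest and the highest values were both normal libraries, so each ischemic value fell inside the normal range. Means were 24.6 ± 4.27, 24.8 ± 1.96 and 26.3 ± 1.88 CPM (SD, n = 3 each). The log2 fold change was 0.01 (SE 0.18) at 1 h and 0.10 (SE 0.18) at 4 h. Both intervals, from -0.41 to 0.43 and from -0.32 to 0.52, lay inside a 1.5-fold change in either direction.

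Txnip, the thioredoxin-binding member, varied more among normal libraries than between group means. It was at 3199, 1790 and 534 CPM in normal replicates 1 to 3, at 1342, 2121 and 1498 CPM at 1 h, and at 1298, 2668 and 1340 CPM at 4 h. All 6 ischemic libraries fell between the lowest and the highest normal library. With 7230 to 57141 counts in a library, counting error was a very small part of this spread. Means were 1841 ± 1333, 1654 ± 412 and 1769 ± 779 CPM (SD, n = 3 each). The log2 fold change was -0.15 (SE 0.61) at 1 h and -0.06 (SE 0.61) at 4 h, with intervals from -1.55 to 1.24 and from -1.45 to 1.34, so that a 2-fold change in either direction lay within what these libraries allow. The sign rested on single normal libraries. Without normal replicate 1 the values were 0.51 and 0.60, and without normal replicate 3 they were -0.59 and -0.49.

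Arrdc4, which shares the MondoA and Mlx regulation of Txnip, had the same wide spread among normal libraries. Its levels were 62.4, 34.9 and 13.8 CPM in normal replicates 1 to 3, then 26.5, 44.5 and 35.6 CPM at 1 h and 28.4, 40.2 and 49.5 CPM at 4 h. Normal replicate 1 was again the highest of the 9 libraries and normal replicate 3 the lowest. Means were 37.0 ± 24.4, 35.5 ± 9.02 and 39.4 ± 10.5 CPM (SD, n = 3 each), and the log2 fold change was -0.06 (SE 0.49) at 1 h and 0.09 (SE 0.49) at 4 h. Without normal replicate 1 these were 0.55 and 0.69, and without normal replicate 3 they were -0.45 and -0.30. Arrdc5, the remaining gene of the ARRDC series and not among the members, had 0 counts in all 9 libraries, which allows up to 3 counts or 0.168 to 0.249 CPM in a library by counting error only.

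Levels of the members were also compared with each other across libraries. Over the 9 libraries log2 CPM of Arrdc4 and Txnip had a Pearson r of 0.88 and a Spearman rho of 0.68, and Txnip ranked 11 among 10446 genes by likeness to Arrdc4. This likeness rested on normal replicates 1 and 3, since r was 0.42 without them, and it was 0.44 over the 6 ischemic libraries. Arrdc2 and Arrdc3 had an r of 0.82 and a rho of 0.80, and r was 0.76 without normal replicate 3 and 4 h replicate 2, the libraries farthest from the median of Arrdc2. Once group means were taken off, r was 0.46 for this pair and 0.88 for Arrdc4 and Txnip. With group means taken off, Arrdc2 was closer to Txnip (r = 0.76) and to Arrdc4 (0.57) than to Arrdc3. Over the 6 ischemic libraries the order was the reverse, with an r for Arrdc2 of 0.89 with Arrdc3, 0.60 with Txnip and 0.17 with Arrdc4. Over all 9 libraries r was 0.63 between Arrdc1 and Arrdc4, 0.55 between Arrdc2 and Txnip, 0.53 between Arrdc1 and Txnip and 0.50 between Arrdc2 and Arrdc4, while Arrdc3 had an r of 0.12 with Txnip and 0.09 with Arrdc4. Over the 6 ischemic libraries Arrdc1 had an r of -0.43 with Arrdc4 and -0.83 with Txnip, and Arrdc3 0.02 with Arrdc4 and 0.60 with Txnip. Without normal replicate 3 and 1 h replicate 2, farthest from the median of Arrdc1, its r was 0.22 with Arrdc4 and -0.18 with Txnip. Without the 2 libraries farthest for Arrdc2, its r was -0.07 with Arrdc4 and -0.18 with Txnip. These values describe points that share libraries, scaling and tissue composition, and no test was made of them. Normal replicate 1, highest in Txnip and Arrdc4, also held the highest summed level of endothelial genes (1619 CPM, against 507 to 1038 CPM in the other libraries) and of adipocyte genes (2893 CPM), and normal replicate 3 the lowest of adipocyte genes (723 CPM). Adipocyte genes were nearly as high in 1 h replicates 3 and 1 (2873 and 2523 CPM), where Txnip was at 1498 and 1342 CPM and Arrdc4 at 35.6 and 26.5 CPM. The part of these tissues in the Txnip and Arrdc4 levels was not tested.

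**Figure D3:**
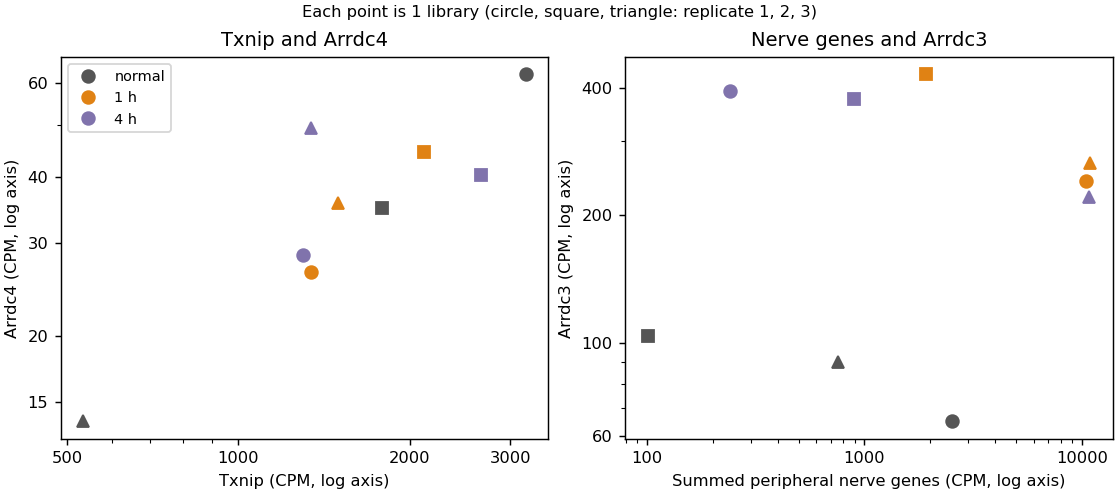
Left, Arrdc4 against Txnip, and right, Arrdc3 against the summed level of 23 peripheral nerve genes, both in CPM on log axes, with 1 point per library coloured by group and shaped by replicate. Normal replicate 1 and normal replicate 3 are the far corners of the left panel (r = 0.88, and 0.42 without them), and on the right the 3 nerve-rich ischemic libraries lie below the other 3 but above every normal library.

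Genes whose profile over the 9 libraries was most like that of each member were then listed, from 10446 other genes that averaged at least 5 CPM. Those nearest to Arrdc3 were Adamts1 (r = 0.99), a secreted metalloprotease, Csrnp1 (0.98), an immediate early nuclear protein, Wee1 (0.98), a cell cycle kinase, Errfi1 (0.97), a feedback inhibitor of the EGF receptor, and Btg2 (0.97), an antiproliferative early gene. Nearest to Arrdc2 were H3f3b (0.96), Socs2 (0.95), Siah1 (0.95), Slc7a6os (0.94) and Rbbp6 (0.94). Nearest to Txnip were Adam15 (0.95), Sts (0.94), Trim33 (0.92), Txlng (0.91) and Smc1a (0.91), and nearest to Arrdc4 were Slmo1 (0.94), Prkch (0.92), Hiatl1 (0.91), Ppp1r9a (0.90) and Fbln2 (0.90). Nearest to Arrdc1 were Armcx6 (0.93), Phtf1 (0.91), Trpc4ap (0.90), Snx4 (0.90) and Arhgap33 (0.90). The highest of so many correlations over 9 points is large by selection, and the lists are given as descriptions.

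Partners, cargo and regulators of the family were examined next, in lists of 80 tested genes. By edgeR 0 of 80 were called at 1 h or at 4 h against normal, with 20 (15 higher, 5 lower) and 18 (12 higher, 6 lower) at an unadjusted p under 0.05, or 25% and 22.5% beside 16.7% and 12.4% of all genes. Counts at that p in the single lists below stand beside the same shares of all genes. The lists are short, and nothing is read from these counts. DESeq2 called 8 of them at 1 h (Adrb1, Srxn1, Fkbp5, Foxo3, Zbtb16, Irs2 and Txnl1 higher, Dscr3 lower), beside 4.53% of all genes. At 4 h it called 10 of them (Adrb1, Fkbp5, Foxo3, Zbtb16, Pdk4 and Irs2 higher, Dscr3, Mlx, Mnt and Ccng2 lower), beside 3.91% of all genes. Between 4 h and 1 h 0 were called by either tool, and by edgeR 0 had an unadjusted p under 0.05. With 1 library left out in turn, genes with such a p numbered from 10 (without normal replicate 3 or 1 h replicate 3) to 21 at 1 h, from 14 to 20 at 4 h, and from 0 to 9 between 4 h and 1 h, where there were 9 without 4 h replicate 3, 8 without 1 h replicate 2 and 2 without 1 h replicate 1. The median log2 fold change of the 80 genes was 0.13 at 1 h and 0.20 at 4 h, beside -0.0076 and 0.03 over all genes. Of the list genes given with values, the naming rule chose Ndfip1, Hecw1, Tsg101, Pdcd6ip, Adrb1, Srxn1, Pycard, Mxd1, Zbtb16, Ccng2, Dscr3 and Vps26a, and the rest were picked with their values known.

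The Nedd4-type ligases and their adaptors, which the PPxY motifs bind, were 11 of 11 tested. Of these, 2 had an unadjusted p under 0.05 at 1 h and 1 at 4 h, all higher, beside 16.7% and 12.4% of all genes. Nedd4 itself was at 1431 CPM in normal arteries, 1234 CPM at 1 h and 1419 CPM at 4 h (log2 fold changes -0.21, SE 0.25, and -0.01, SE 0.25), and Itch was at 93.3, 87.3 and 78.1 CPM. Ndfip1, a membrane adaptor that activates these ligases, was at 116 ± 13 CPM in normal arteries and 245 ± 90.6 CPM at 1 h (log2 fold change 1.07, SE 0.40, edgeR adjusted p = 0.273). Ndfip1 was at 289, 304 and 287 CPM in the 3 nerve-rich libraries and at 126 to 140 CPM in the other 3 ischemic ones, next to 108 to 131 CPM in normal libraries, and the part of nerve tissue in its level was not tested. Hecw1, a ligase of neural tissue, was at 10.5 ± 5.34 CPM in normal arteries and 25.9 ± 7.79 CPM at 4 h (1.31, SE 0.47, adjusted p = 0.316). Of the ESCRT partners of Arrdc1, 9 of 9 in the table were tested, 3 had an unadjusted p under 0.05 at 1 h and 1 at 4 h, all higher. Tsg101 was at 49.0 ± 3.33 CPM in normal arteries and 72.4 ± 13.6 CPM at 1 h (0.56, SE 0.21, edgeR adjusted p = 0.277). Like Ndfip1, Tsg101 was higher in the nerve-rich libraries (82.2, 78.0 and 75 CPM) than in the other ischemic ones (50.1 to 56.9 CPM), beside 45.1 to 51.2 CPM in normal libraries. Pdcd6ip, the gene of ALIX, was at 117 ± 4.15 CPM in normal arteries and 152 ± 8.11 CPM at 4 h (0.37, SE 0.14, edgeR adjusted p = 0.340).

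Among proteins that alpha-arrestins carry to degradation, 10 of 12 genes were tested. Of these, 2 had an unadjusted p under 0.05 at 1 h and 1 at 4 h, all higher, beside 16.7% and 12.4% of all genes. Adrb1, the beta-1 adrenergic receptor, was at 0.47 ± 0.18 CPM in normal arteries, 2.81 ± 1.36 CPM at 1 h and 2.64 ± 0.35 CPM at 4 h. Its log2 fold change was 2.57 (SE 0.50, edgeR adjusted p = 0.145) at 1 h and 2.48 (SE 0.50, adjusted p = 0.102) at 4 h. Its levels lay wholly above normal at 1 h and at 4 h, as did 12.8% and 7.93% of all genes, but they correspond to few counts. Itgb4, integrin beta 4, was at 877 ± 1069, 929 ± 415 and 870 ± 536 CPM in the 3 groups. Its normal libraries were at 2109, 192 and 329 CPM. The log2 fold changes of Itgb4 were 0.08 (SE 0.93) at 1 h and -0.01 (SE 0.93) at 4 h. Several-fold changes either way lay within what these libraries allow. The glucose transporter genes Slc2a1 (24.0, 26.2 and 18.9 CPM) and Slc2a4 (161, 91.9 and 159 CPM) overlapped between groups, with log2 fold changes of 0.12 (SE 0.36) and -0.81 (SE 0.57) at 1 h.

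The thioredoxin system, with which Txnip interacts, had 16 of 16 genes tested and a median log2 fold change of 0.27 at both stages. At an unadjusted p under 0.05 there were 3 at 1 h and 2 at 4 h, all higher, beside 16.7% and 12.4% of all genes. Txn1, the cytosolic thioredoxin that Txnip binds, was at 67.3 CPM in normal arteries, 71.7 CPM at 1 h and 85.3 CPM at 4 h (log2 fold changes 0.09, SE 0.20, and 0.34, SE 0.20). Srxn1, which repairs oxidized peroxiredoxins, was at 5.55 ± 1.80 CPM in normal arteries and 32.5 ± 11 CPM at 1 h (2.54, SE 0.66, edgeR adjusted p = 0.210). At 4 h it was at 17.7 ± 15.3 CPM and overlapped normal (1.67, SE 0.64, adjusted p = 0.338). The 3 nerve-rich libraries held its 3 highest values (29.7, 44.5 and 34.7 CPM), and the other ischemic libraries were at 23.1 CPM at 1 h and 13.6 and 4.89 CPM at 4 h. Of the inflammasome genes linked to Txnip, 6 of 6 were tested, and 1 had an unadjusted p under 0.05 at each stage, lower. It was Pycard, the adaptor ASC, at 2.16 ± 1.01 CPM in normal arteries and 0.61 ± 0.09 CPM at 4 h (log2 fold change -1.82, SE 0.50, adjusted p = 0.202). Nlrp3 was below 1 CPM on average in each group.

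The MondoA and Mlx network regulates Txnip and Arrdc4, and of its 7 tested genes 2 had an unadjusted p under 0.05 at 1 h and 3 at 4 h, all lower than normal, with median log2 fold changes of -0.43 and -0.63 over the list. Mlx was at 37.8 CPM in normal arteries, 27.7 CPM at 1 h and 23.5 CPM at 4 h (log2 fold changes -0.45, SE 0.18, and -0.68, SE 0.18). Its libraries lay wholly below normal at both stages, but the share of all genes that did so was not counted. Mnt, a repressor of the same network, had -0.44 (SE 0.17) and -0.64 (SE 0.17), and Mxd1, another, had -0.49 (SE 0.22) and -0.63 (SE 0.22). Mlxip, the gene of MondoA, was at 37.2, 37.1 and 34.0 CPM (-0.005, SE 0.26, and -0.13, SE 0.26).

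Genes of glucocorticoid and FoxO regulation, pathways that are known to raise several alpha-arrestins, had 15 of 15 genes tested. With unadjusted p under 0.05, 5 lay higher than normal and 1 lower at 1 h, and 7 lay higher and 1 lower at 4 h, with medians of 0.55 and 0.74. Zbtb16, a glucocorticoid target, was at 21.8 ± 23.6 CPM in normal arteries, 120 ± 68.8 CPM at 1 h and 134 ± 11.8 CPM at 4 h (log2 fold changes 2.47, SE 0.84, edgeR adjusted p = 0.260, and 2.63, SE 0.85, adjusted p = 0.264). Fkbp5, a co-chaperone induced by glucocorticoids, was at 51.0 ± 33.1, 271 ± 143 and 216 ± 46.3 CPM (2.41, SE 0.56, edgeR adjusted p = 0.188, and 2.08, SE 0.55, adjusted p = 0.187). Pdk4 was at 115 ± 68.0, 317 ± 81.2 and 541 ± 286 CPM (1.46, SE 0.51, edgeR adjusted p = 0.263, and 2.23, SE 0.53, adjusted p = 0.157). Irs2 was at 63.5 ± 12.0, 159 ± 66.1 and 188 ± 24.1 CPM (1.33, SE 0.32, edgeR adjusted p = 0.202, and 1.57, SE 0.32, adjusted p = 0.104). Klf15, Tsc22d3 and Klf9 moved less. Klf15 had -0.43 (SE 0.29) and 0.25 (SE 0.29) and overlapped normal at both stages. Tsc22d3 (0.55, SE 0.30, and 0.74, SE 0.30) and Klf9 (0.55, SE 0.36, and 1.00, SE 0.36) overlapped normal at 1 h. The transcription factor gene Foxo3 was at 26.6 ± 8.04, 63.1 ± 11.7 and 67.7 ± 12.1 CPM (1.25, SE 0.26, adjusted p = 0.161, and 1.35, SE 0.26, adjusted p = 0.0919). Ccng2, a FoxO target, was at 35.5 ± 15.4, 18 ± 3.99 and 13.8 ± 3.87 CPM (-0.98, SE 0.35, adjusted p = 0.270, and -1.36, SE 0.36, adjusted p = 0.184). Nr3c1, the glucocorticoid receptor, was at 173 CPM in normal arteries, 123 CPM at 1 h and 151 CPM at 4 h (-0.50, SE 0.23, and -0.20, SE 0.23), with overlapping groups. With the nerve score in the model 2 genes of all the lists were called at 4 h, beside 0.866% of all genes. The list genes called were Pdk4, which holds back pyruvate oxidation (log2 fold change 2.36, SE 0.29, edgeR adjusted p = 0.0183), and Irs2, an adaptor of the insulin receptor (1.62, SE 0.28, adjusted p = 0.0492).

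**Figure D4:**
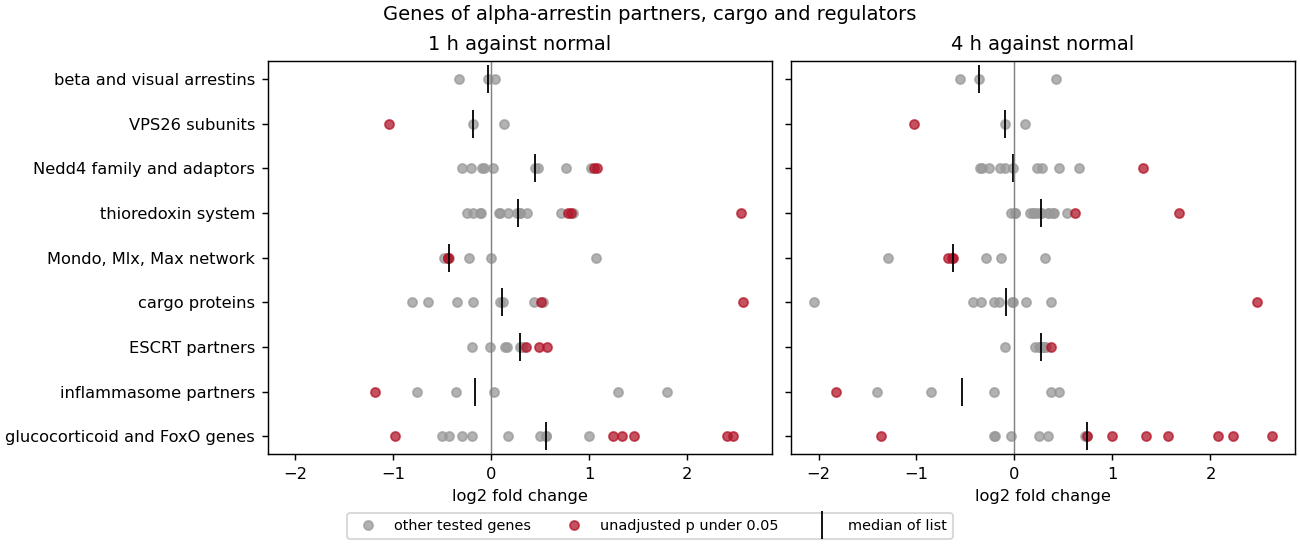
Fitted log2 fold change at 1 h and at 4 h against normal (horizontal axis) of each tested gene in 9 lists of alpha-arrestin relatives, partners, cargo and regulators, with red for an unadjusted p under 0.05, grey for the rest and a tick at the median of the list. The Mondo and Mlx list has medians below 0 (-0.43 and -0.63) and the glucocorticoid and FoxO list above 0 (0.55 and 0.74), and no gene was called by edgeR.

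Other proteins with an arrestin fold were compared last. The beta-arrestins Arrb1 (109, 107 and 85.3 CPM in normal, 1 h and 4 h arteries) and Arrb2 (14.4, 11.4 and 9.77 CPM) overlapped between groups, and 0 of 3 tested genes of that list had an unadjusted p under 0.05. Of the 3 Vps26-type subunits, 1 had an unadjusted p under 0.05 at each stage. This was Dscr3, a subunit of the retriever recycling complex. It was at 34.4 ± 3.59 CPM in normal arteries, 16.6 ± 4.58 CPM at 1 h and 16.8 ± 1.26 CPM at 4 h. Dscr3 did not overlap normal at either stage, but the share of all genes lying wholly below normal was not counted. Its log2 fold change was -1.05 (SE 0.22, edgeR adjusted p = 0.168) at 1 h and -1.03 (SE 0.22, adjusted p = 0.124) at 4 h. Vps26a, a retromer subunit, was at 57.7 ± 3.01 CPM in normal arteries and 63.2 ± 1.24 CPM at 1 h (0.13, SE 0.14, adjusted p = 0.614).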

How the data were processed

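Total RNA of 9 rat superior mesenteric arteries, 3 from each of the normal, ischemia 1h and ischemia 4h groups, was sequenced on an Illumina instrument. The deposited table held whole-number counts per gene symbol, which the authors made from aligned reads, and HISAT2 is named in the submitters' processing notes without a version. The counting program, the genome build, the annotation and the strand setting are not given in the sources used here, so reads shared with overlapping or antisense genes could not be told apart. The study's methods speak of microarrays for expression profiling, whereas the table holds whole counts, and it was analysed as counts.

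Counts were analysed in R 4.3.3 with edgeR 4.0.16. Genes were filtered with filterByExpr (15482 of 24047 genes with a count were kept), scaled by TMM and fitted with group as the only term over all 9 libraries, and contrasts were tested with the quasi-likelihood F-test and Benjamini-Hochberg adjustment. Calls needed an adjusted p under 0.05 together with a fold over 1.5. Log2 CPM values used a prior count of 2, whereas fitted log2 fold changes kept the default prior of edgeR. The SE was the absolute log2 fold change divided by the square root of F. Total counts were 13114273 to 15504240 per library, and the common biological coefficient of variation was 51.6%, so the spread between libraries and not counting error limited the precision. No 2 libraries were alike within sampling noise (chi-square per degree of freedom of 32.2 or more). The procedure was tested on simulated counts.

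The members and the gene lists were chosen with earlier results of these data known. Named genes were the members, the list genes that were called or that had the largest or smallest change of their list without overlap with normal, and the 5 genes most like each member. Other list genes given with values were picked outside this rule with their values known. Alternatives were DESeq2 1.42.0, other size factors, library size as the only scaling, other filters, fits of only the groups compared, a replicate block, the nerve score as a covariate, each library left out in turn and, added after the data were seen, the 3 libraries with over 1000 CPM of Dbh left out together. Promoter sequences were taken from RefSeq (GRCr8), and protein sequences were not analysed here.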

Additional observations from a re-analysis of the deposited data

How the results depend on the processing

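Arrdc3 and Arrdc2 stayed above normal at 1 h and 4 h in all 18 alternatives, and the other members, whose values were close to 0, changed sign in some. By DESeq2 members called were 1 (1 h), 2 (4 h) and 1 (3 groups together), and list genes called were 8, 10 and 8. With the nerve score as a covariate 1 member was called in each of these contrasts, and 2 list genes at 4 h and 1 in the 3 groups together. In other alternatives 0 members and 0 list genes were called. Genes called overall were 702, 606 and 669 by DESeq2 and 17, 134 and 30 with the nerve score, against 9, 14 and 6. Scaling by library size alone moved the median over all genes to -0.15 (4 h against normal) and -0.24 (4 h against 1 h), and log2 fold changes at 4 h then turned to -0.095 for Arrdc1 and -0.13 for Arrdc4, and those of 4 h against 1 h to -0.12 (Arrdc1), -0.15 (Arrdc3), -0.014 (Arrdc4) and -0.12 (Txnip), each above its median. With the nerve score, Arrdc1 at 1 h was -0.019, and 4 h against 1 h was -0.41 for Arrdc3 and -0.045 for Txnip. Without the 3 Dbh-rich libraries together, values at 1 h were -0.11 (Arrdc1), 0.30 (Arrdc4) and 0.24 (Txnip), at 4 h -0.067 (Arrdc4) and 0.15 (Txnip), and for 4 h against 1 h -0.15 (Arrdc3), -0.37 (Arrdc4) and -0.090 (Txnip). Leaving out each library in turn gave at 1 h -0.12 to 0.11 (Arrdc1), -0.45 to 0.55 (Arrdc4) and -0.59 to 0.51 (Txnip), at 4 h -0.038 to 0.19, -0.30 to 0.69 and -0.49 to 0.60 for the same genes, and for 4 h against 1 h -0.097 to 0.39 (Arrdc3), -0.050 to 0.34 (Arrdc4) and -0.33 to 0.32 (Txnip). Without 1 library, genes called overall were 0 to 11 at 1 h and 1 to 14 at 4 h, with 0 at 1 h without normal replicate 2 or 3. The cause of these shifts was not tested. Same-numbered libraries of different groups had correlations of their deviations from group means of -0.65 to 0.66. Libraries with different numbers had -0.71 to 0.65, so these values do not settle whether the numbers pair libraries. With the replicate block 0 members were called, genes called overall were 7, 7 and 0 (1 h, 4 h, 3 groups), and Arrdc4 at 1 h was 0.0030, Txnip at 1 h 0.033 and Txnip at 4 h 0.074.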
